A study of Arabidopsis thaliana with 4 samples.

Results

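Major latex protein-like (MLP-like) genes encode small proteins of the Bet v 1 fold, and 10 Arabidopsis thaliana loci of this family were listed by locus code for a comparison of DEX-treated with mock-treated seedlings. A locus entered when the array annotation paired a probe set with it and with no other gene, and the brightest probe set was to stand for a locus with several. The annotation used covered only 14016 of the 22810 probe sets, and it paired 13286 loci with a probe set in this way. By that rule 4 of the 10 loci had a probe set, 1 each: AT4G23670, AT4G23680, AT3G26450 and AT4G14060. The other 6 listed loci were paired with no such probe set and were not analysed here. They were MLP328 (AT2G01520), MLP329 (AT2G01530), MLP28 (AT1G70830), MLP34 (AT1G70850), MLP43 (AT1G70890) and MLP423 (AT1G24020). Here and below, a gene without a pairing may still have probes on the array that the annotation does not assign.

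The proteins take their name from latex of opium poppy, in which the first of them were found. They share with the birch pollen allergen Bet v 1 and the PR-10 proteins a fold in which a curved sheet and a long helix enclose a hydrophobic cavity, and several relatives carry small hydrophobic ligands in it. The abscisic acid receptors of the PYR/PYL/RCAR family have the same type of fold. In Arabidopsis, MLP43 has been linked to abscisic acid and drought responses, and MLP328 and MLP329 to vegetative growth and the time of flowering. The 4 loci that could be read here carry only their locus codes in the gene table used, and no role is given to them beyond the family.

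All 4 arrays came from seedlings that carry 35S::Dof3.2-GR, mock-treated on 2 arrays and treated with 10 µM dexamethasone (DEX) on the other 2, each for 3 h. The transgene joins the Dof zinc finger transcription factor Dof3.2 to the steroid-binding part of the animal glucocorticoid receptor (GR), under a constitutive viral promoter; DEX lets such a fusion enter the nucleus. The plants had spent 4 days on agar with kanamycin at 50 µg/ml and 4 days in shaken liquid medium, both with 1% sucrose, at 22 °C. Every plant carried the fusion, so a response to the hormone alone and one to the activated factor cannot be told apart.

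The array values were MAS5 signals on a linear scale, with a median of 190.6 to 193.3 per array. Correlation between arrays across tested probe sets ran from r = 0.982 to r = 0.992. The label "seedling" was checked against fixed tissue markers: green tissue was represented by 4 annotated genes of 10, with signals of RCA, the Rubisco activase gene, from 18700 to 23730. Root was represented by 1 of 7, PYK10, an abundant root β-glucosidase gene, at 13480 to 14580. Of the 10 tested markers of root, root hair, green, vascular and stomatal cells, none passed the threshold used below in limma, and 1, the root hair expansin gene EXPA18, had an unadjusted p under 0.05 (log2 change -0.43 ± 0.15 SE). The labels do not say whether the replicates came from separate cultures, so the spread behind each p-value may be technical.

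None of the MLP-like genes that could be tested passed the test for a change after 3 h of DEX. AT4G23670, AT4G23680 and AT3G26450 were well above the level at which probe sets were left out as dim, a signal of about 111, and their mean signals in DEX seedlings were 1.1-fold, 1.14-fold and 1.12-fold those in mock seedlings. Of these 3 genes, 0 rose and 0 fell in limma with Benjamini-Hochberg adjustment over 13648 tested probe sets (two-sided, threshold 0.05), and 0 had an unadjusted p under 0.05. Over all tested probe sets 0.586% passed the threshold, 0.293% (40) higher and 0.293% (40) lower in DEX, and 9.25% had an unadjusted p under 0.05. The median log2 change of the 3 genes was 0.17, against -0.01 over all tested probe sets.

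AT4G23670 had signals of 6967 and 6147 on mock replicates 1 and 2, with 6890 and 7462 on DEX replicates 1 and 2. The groups overlapped, since the first DEX array lay between the mock arrays. The means were 6557 ± 580 in mock and 7176 ± 404 in DEX seedlings (SD, n = 2 each), a log2 change of 0.13 ± 0.11 (SE) with an adjusted p of 0.785 in limma. The 95% interval of that fit ran from 0.924-fold to 1.3-fold the mock level.

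AT4G23680 is the next protein-coding gene after AT4G23670 in the RefSeq gene table, so the pair lies side by side in the genome. Mock seedlings gave signals of 4312 and 3630, and DEX seedlings signals of 4670 and 4355. Both DEX arrays were above both mock arrays, with DEX replicate 2 only 1.01-fold above mock replicate 1. Full separation in that direction was found in 18.2% of all tested probe sets. The mean went from 3971 ± 483 to 4513 ± 223 (SD, n = 2 each), a log2 change of 0.19 ± 0.12 (SE; adjusted p = 0.683, limma). The interval reached from 0.953-fold to 1.36-fold. A log2 change at least as large in size was measured for 28.6% of all tested probe sets.

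For AT3G26450 the signals were 2179 and 1724 in mock seedlings, against 2030 and 2336 after DEX. DEX replicate 1 was lower than mock replicate 1, and the groups overlapped. The means were 1952 ± 322 in mock and 2183 ± 216 in DEX seedlings (SD, n = 2 each), a log2 change of 0.17 ± 0.13 (SE; adjusted p = 0.782, limma). The interval ran from 0.913-fold to 1.38-fold, the widest of the 3 tested genes. The mock replicates of AT3G26450 differed by 0.34 on the log2 scale, a gap that 18.6% of tested probe sets reached, against a median gap of 0.16 between the mock arrays.

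AT4G14060 was the dimmest of the 4 genes and fell just under the filter, at 0.994 of its level, so it was left out of the comparison. It gave 102 and 100.1 in mock seedlings, and 116 and 123.6 after DEX. Both DEX arrays were above both mock arrays, and the 4 ratios of a DEX to a mock array lay between 1.14 and 1.23. Among the tested probe sets, which leave out AT4G14060, 18.2% were separated in this direction. With the filter moved to the 20th percentile, where it was tested, its log2 change was 0.25 ± 0.2 (SE; adjusted p = 0.777, limma), and without a filter the adjusted p was 0.825. Without detection calls, it is not known whether AT4G14060 was above background.

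**Figure D1:**
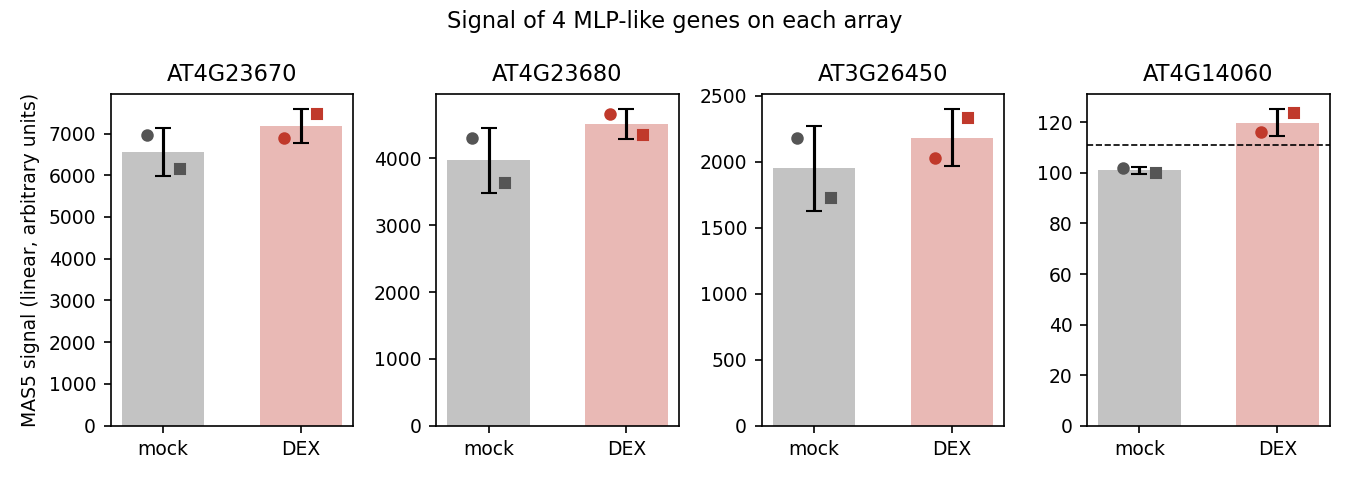
MAS5 signal (linear scale, arbitrary units, each panel with its own axis from 0) of AT4G23670, AT4G23680, AT3G26450 and AT4G14060 on the mock and DEX arrays. Bars are means, error bars the SD of 2 arrays, circles replicate 1 and squares replicate 2, and the dashed line in the panel of AT4G14060 is the filter level of about 111. The second mock array has the lowest point in all 4 panels.

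Mock replicate 2 gave the lowest of the 4 signals for all 4 genes. It was also the lowest array for 28% of all tested probe sets, against 22.5% to 25% for the other arrays. The size of the small positive differences moved with the mock array used, as the plot of changes with each array left out shows. Without mock replicate 2 the median log2 change of the 3 tested genes was 0.0416, and that of AT3G26450 alone was -0.00116. Without mock replicate 1 the median was 0.313, and the changes of AT4G23670, AT4G23680 and AT3G26450 were 0.222, 0.313 and 0.337. In these reduced comparisons a group of 1 array has no spread of its own and is assumed to vary like the group that keeps 2. Whether the 3 tested genes passed the threshold in them therefore says nothing about stability. Without mock replicate 1 the 95% intervals of AT4G23680 and AT3G26450, from 1.05-fold and 1.06-fold upward, did not include equal levels. These intervals rest on the same assumption and are not adjusted for the number of probe sets, so no change is read from them. Leaving out a DEX array moved these values too: without DEX replicate 1, AT3G26450 stood at 0.269 and AT4G23680 at 0.138, and without DEX replicate 2 they stood at 0.0668 and 0.239. For AT4G23670 the changes without DEX replicates 1 and 2 were 0.189 and 0.0744.

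**Figure D2:**
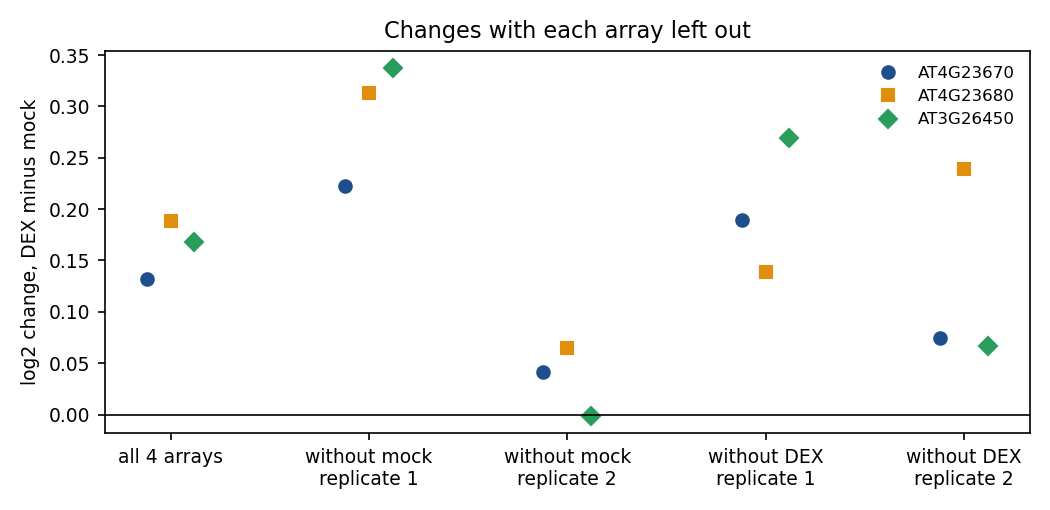
Log2 change (DEX minus mock) of AT4G23670 (circles), AT4G23680 (squares) and AT3G26450 (diamonds) with all 4 arrays and with each array left out in turn. The points lie between -0.00116 and 0.337, nearest to 0 without mock replicate 2 and farthest from it without mock replicate 1.

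The 3 tested genes were also compared with one another within each array, which cancels any scaling of an array as a whole. The change of AT4G23670 was 0.06 smaller on the log2 scale than that of its neighbour AT4G23680 (difference -0.06) and differed from that of AT3G26450 by -0.04. The changes of AT4G23680 and AT3G26450 differed by 0.02. In all 3 pairs the within-array log2 ratios of the mock and DEX arrays overlapped. An exact permutation test over arrays (two-sided, 3 pairs) gave p = 1, 0.667 and 1 in the order given, and 1 for each after adjustment, where 0.333 is the smallest p that 2 arrays against 2 allow. Whether the probe sets of the neighbours AT4G23670 and AT4G23680 share signal was not tested.

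The wider family was read from a list of 17 further MLP-like loci, written from general knowledge and not checked against protein sequences. Of these, 12 were paired with a probe set and 4 were bright enough to test. In limma 0 of the 4 rose and 0 fell, and 0 had an unadjusted p under 0.05. Their median log2 change was -0.04, with 3 of the 4 changes below 0, as were 51.8% of all tested probe sets.

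AT1G23130 had signals of 5906 and 5543 in mock seedlings, with 5438 and 5486 after DEX. Both DEX arrays were below both mock arrays, by little, and the log2 change was -0.07 ± 0.10 (SE; adjusted p = 0.898, limma). AT1G23120, its neighbour in the gene table, had signals of 226.3 and 332.7 in mock and 270.2 and 276.1 in DEX seedlings. The DEX arrays lay between the mock arrays, whose gap was one that only 4.38% of tested probe sets reached, and the log2 change was -0.01 ± 0.19 (SE).

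AT1G30990 had signals of 762 and 759.8 in mock and 720 and 679.2 in DEX seedlings. Both DEX arrays were lower, and full separation in this direction was found in 21.1% of all tested probe sets. Its log2 change was -0.12 ± 0.11 (SE; adjusted p = 0.813, limma), the lowest of the 7 tested genes of both lists. AT1G14960, with signals of 351.4 and 464.4 in mock and 434.7 and 405.6 in DEX seedlings, had overlapping groups and a log2 change of 0.06 ± 0.16 (SE).

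**Figure D3:**
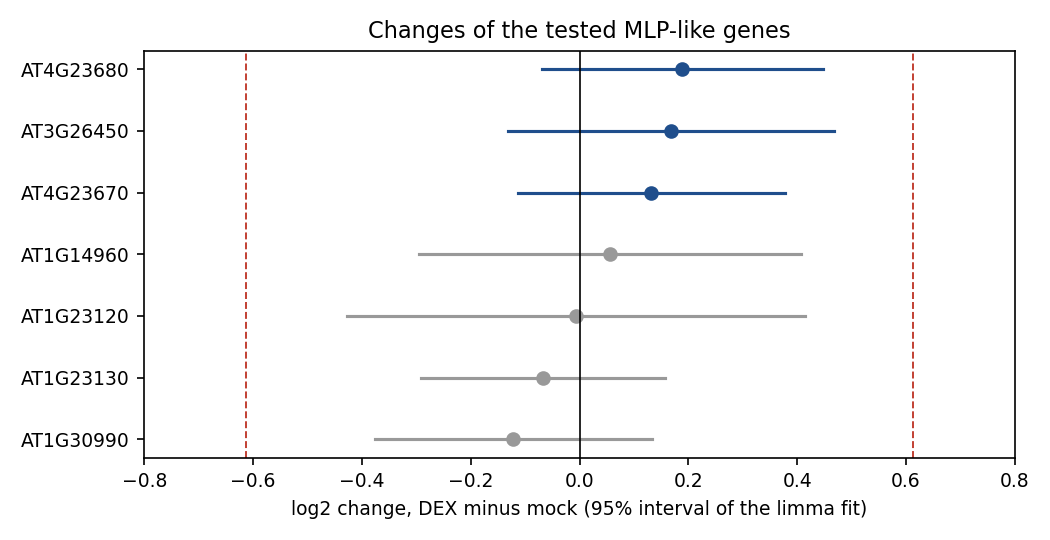
Log2 change (DEX minus mock, points) with the 95% interval of the limma fit (lines) for the 3 tested genes of the main list (blue) and the 4 tested further MLP-like genes (grey). Dashed red lines mark the smallest change that passed the threshold anywhere on the array, 1.53-fold. Every interval lies inside them and includes 0. The lines come from another probe set and are not a detection limit for these genes.

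The other 8 further loci had no signal at or above the filter level on any array, with values from 0.353 to 110.6. They were AT1G70870, AT1G70880, AT1G14930, AT1G14940, AT1G14950, AT1G23910, AT3G26460 and AT5G28010. AT1G70880 stood at 78.94 and 110.6 in mock seedlings, with 75.4 and 36.5 after DEX, and those of AT3G26460, which follows AT3G26450 in the gene table, were 62.07, 87.92, 85.15 and 61.85 in the same order. At such levels on this scale no direction was drawn. Over both lists, 27 loci gave 16 with a probe set, 7 tested genes and 0 past the threshold. Of the 14 PYR/PYL/RCAR receptor genes, 0 were paired with a probe set, so that branch of the fold was not analysed here.

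The 3 probe sets of 1 gene, among 7258 outside these lists, whose mean-centred log2 signals over the 4 arrays lay nearest to those of AT4G23680, the MLP-like gene with the lowest p, were AT4G03020, AT3G25130 and AT1G75200. Their Euclidean distances from it were 0.0231, 0.025 and 0.0262 on the log2 scale. AT4G03020 had signals of 1062 and 913.8 in mock and 1165 and 1088 in DEX seedlings. It was lowest on mock replicate 2, and none of the 3 passed the threshold. Both follow largely from the choice by likeness to AT4G23680. With 4 arrays such likeness describes these arrays only.

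The 95% intervals rest on the spread between these arrays and on variances borrowed from other probe sets, so they do not cover a spread between cultures that the arrays did not sample. With all 4 arrays their upper limits for AT4G23670, AT4G23680 and AT3G26450 were 1.3-fold, 1.36-fold and 1.38-fold, under the smallest change called on the array, 1.53-fold. With 1 array left out, the upper limits of AT4G23670 ran from 1.24-fold to 1.42-fold, those of AT4G23680 from 1.24-fold to 1.5-fold and those of AT3G26450 from 1.19-fold to 1.58-fold, the last without DEX replicate 1. The smallest called change then ran from 1.33-fold, without mock replicate 1, to 2.04-fold, without DEX replicate 2. Without mock replicate 1 the upper limits of AT4G23670, AT4G23680 and AT3G26450 were 1.41-fold, 1.48-fold and 1.5-fold, above the 1.33-fold of that fit. In the other fits with 1 array left out, the upper limits lay under the smallest called change of the same fit. No detection limit was computed for these genes, so changes within these intervals are neither shown nor excluded with 2 arrays a group.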

How the data were processed

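Total RNA was hybridised to one-colour Affymetrix arrays, per the labels' protocols. The deposited intensities are linear MAS5 signals, per the submitters' processing notes, whose version and settings are not given in the sources used here. The method scales each array as a whole, so a change in total RNA cannot be seen. For arrays, their number limits the precision.

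Groups came from the sample titles. Of 22810 probe sets, 64 controls were left out, log2 was taken of the rest with no pseudocount added, and those with a mean under the 40th percentile were left out, which kept 13648. A single gene was annotated for 13513 probe sets and several for 503, and 13436 matched a locus in a RefSeq table of assembly TAIR10.1. The groups were compared in limma 3.58.1 (run in R 4.3.3) with a group term and a mean-variance trend, with 9.74 degrees of freedom a test, mostly borrowed across probe sets. The procedure was tested on simulated data with changes larger than those of the MLP-like genes. That test does not bear on changes of their size. The members and lists were chosen with earlier results of these data known. Named genes are all members, all further MLP-like loci with a probe set, and by a fixed rule the 3 nearest genes. The marker lists were fixed, and RCA, PYK10 and EXPA18 are named from them only as examples. Deviations of same-numbered arrays correlated at 0.109, and the labels state no pairing, so the numbers were not used as pairs. The alternatives were other normalizations, filters, a pseudocount of 32, variance models, the replicate number as a block, other probe set rules and each array left out.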

Additional observations from a re-analysis of the deposited data

How the results depend on the processing

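In each of the alternatives that kept all 4 arrays, 0 MLP-like genes passed the threshold in either direction, with 3 tested, or 4 without a filter or with one at the 20th percentile. Apart from the arrays left out, AT4G23670, AT4G23680 and AT3G26450 kept log2 changes of 0.128 to 0.132, 0.181 to 0.189 and 0.152 to 0.168, with adjusted p from 0.528 to 0.835 in limma. With each array left out, the median change ranged from 0.0416 to 0.313, that of AT3G26450 from -0.00116 to 0.337, and adjusted p from 0.139 to 1; in these 4 fits the lone array is assumed to vary like the group that keeps 2, so that none passed says nothing about stability. With the replicate number as a block, AT4G23680 had an adjusted p of 0.528, and the block changed no call of these genes. The counts over all probe sets, 40 higher and 40 lower in DEX, were 15 and 10 without a filter, 20 and 23 with one at the 60th percentile, 17 and 22 with probe sets of 1 gene only, where 7275 were tested, and 98 and 87 with the replicate block. With each array left out they ran from 13 to 276 higher and from 12 to 220 lower; the causes were not tested. The mean over several probe sets of a locus left these genes as they were, since each has 1. Low signal limits AT4G14060 and the 8 dim further loci.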
